A study of Rattus norvegicus with 4 samples.

Results

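The genes described here encode the enzymes that make and use glutathione, the thioredoxin and peroxiredoxin system, and the enzymes that remove superoxide and hydrogen peroxide. They were taken by symbol, as all names in the expression table that begin with Gsta, Gstk, Gstm, Gsto, Gstp, Gstt, Mgst, Prdx, Txn or Gpx, together with Sod1, Sod2, Sod3, Cat, Nqo1, Nqo2, Gclc, Gclm, Gss, Gsr and Srxn1. This gave 64 of the 16580 gene symbols in the table, at 63 loci, because Gstm2 and Gstm4 share 1 locus and cannot be separated. Of these loci, 49 had a mean of at least 1 FPKM (fragment counts normalised to transcript length and to the mapped total) and a value above 0 in both groups.

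RNA came from the left ventricle of male Sprague Dawley rats on 0.4% Dyets chow. All rats had 5/6 nephrectomy (5/6Nx), the removal of most kidney mass by excision, at 10 weeks of age, so the comparison holds no animal with intact kidneys. The groups differed in the locked nucleic acid (LNA) oligonucleotide given into the jugular vein: anti-miR-21-5p, which binds and blocks miR-21-5p (the anti-miR-21 group), or a scrambled strand (the anti-scr group). Each was given at 1 mg/kg on 3 days in week 1 and again in week 4, and hearts were taken in week 7. There were 2 libraries per group, each from the pooled RNA of 2 to 3 rats, and depth ran from 47826514 to 54952098 reads per library, with 94.0% to 94.4% mapped. The authors' FPKM came as 1 value per group, so the spread between pools enters only through the p and q of the authors' deposited table, and no standard deviation can be given. The tissue label was met by its markers: all 10 cardiomyocyte marker loci were present, with a summed level of 118595 FPKM with anti-scr and 93173 FPKM with anti-miR-21, and the liver and kidney markers summed to under 1 FPKM in either group.

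miR-21-5p is abundant in cardiac fibroblasts and other non-muscle cells, and its inhibition has been studied in cardiac fibrosis. Glutathione is a small thiol peptide made by glutamate-cysteine ligase and glutathione synthetase. Glutathione peroxidases and peroxiredoxins reduce peroxides; the first draw on glutathione and most of the second on thioredoxin, and both thiols are restored with NADPH by their reductases. Heart muscle carries a mitochondrial branch of this system because its respiratory chain releases superoxide. The transcription factor Nrf2, held back by its adaptor Keap1, drives many of these genes through a short promoter sequence, the antioxidant response element. The mature strand that the inhibitor targets is shown with its seed, bases 2 to 8, in capitals, from RefSeq (GRCr8, chromosome 10, 71902653 to 71902674, minus strand).
rno-miR-21-5p: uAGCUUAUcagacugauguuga

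No gene of this module was called at a q under 0.05. Of 49 tested loci, 0 passed in the authors' deposited table, where the test was Cuffdiff, and the background over all loci was 0.815% (105 of 12876; 0.186% higher and 0.629% lower). The lowest q of a member was 0.278, for Prdx5, in the authors' deposited table. At an unadjusted p under 0.05, 5 members were lower with anti-miR-21 and 0 were higher in the authors' deposited table; these are 10.2% and 0% of the tested members, against 6.11% lower and 3.18% higher, or 9.3% in either direction, over all tested loci. Over tested named loci with a mean of at least 1 FPKM, a set more like the members, these shares were 6.96% lower and 3.06% higher. The 5 members were the peroxiredoxin genes Prdx5 and Prdx2, the mitochondrial thioredoxin reductase gene Txnrd2, the glutathione peroxidase gene Gpx1 and the locus of Gstm2 and Gstm4. By value alone, 28 of 49 members were lower and 21 higher, with a median log2 fold of -0.08 (anti-miR-21 over anti-scr, here and below). Among all 9960 named loci above the same minimum, 48.1% were lower and the median log2 fold was 0.01. Member folds ran from -0.63 to 0.43 on the log2 scale.

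**Figure D1:**
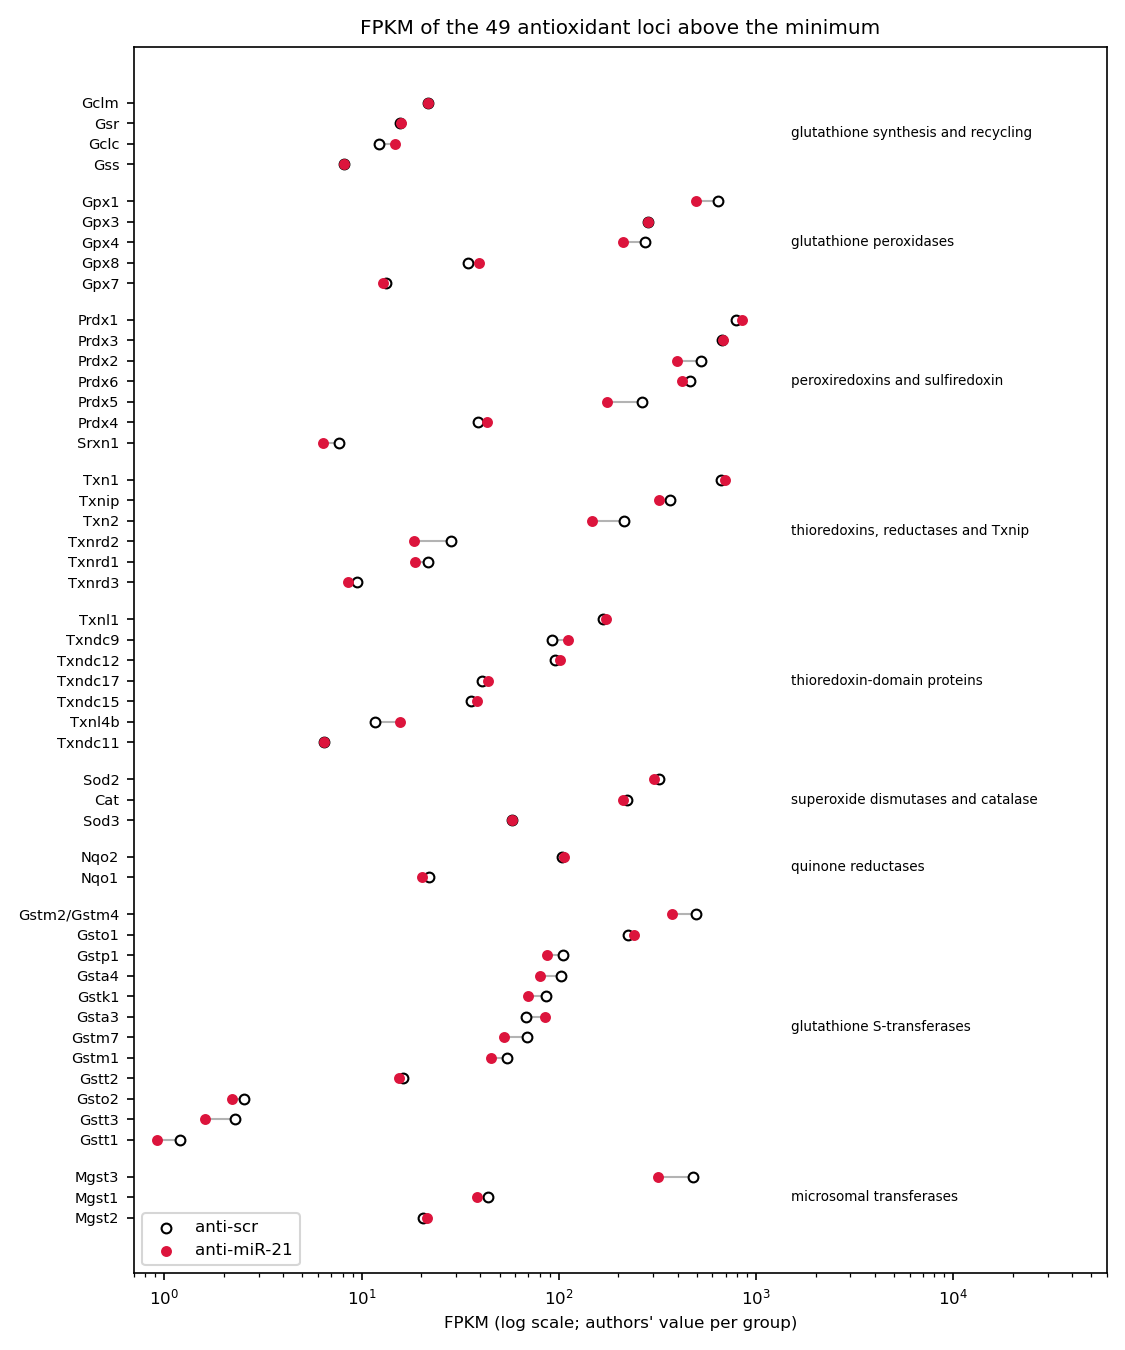
Authors' FPKM per group (log axis) for the 49 loci, grouped by family; open circles are anti-scr and filled circles anti-miR-21, with no error bars because each group has 1 value. The 2 points nearly coincide for Gclm, Gss, Gpx3, Prdx3 and Sod3, and the widest gaps are those of Txnrd2, Mgst3 and Prdx5.

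Of the 4 genes that make and recycle glutathione, 3 lay close to their anti-scr levels and Gclc was higher in value. Gclm, the modifier subunit of glutamate-cysteine ligase, had 21.6 FPKM with anti-scr and 21.7 FPKM with anti-miR-21 (log2 fold 0.01). Gss, glutathione synthetase, had 8.18 FPKM in both groups. Gsr, glutathione reductase, had 15.7 and 15.9 FPKM (0.01). The catalytic subunit gene Gclc had 12.3 and 14.8 FPKM (log2 fold 0.27). Its q was 0.762 in the authors' deposited table.

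Among glutathione peroxidases, the genes for the cytosolic and mitochondrial enzymes were lower in value and those for secreted and endoplasmic reticulum forms were not, apart from a small difference in Gpx7. Gpx1, which reduces hydrogen peroxide in cytosol and mitochondria, had 641.3 FPKM with anti-scr and 493.9 FPKM with anti-miR-21 (log2 fold -0.38; chromosome 8, 116466117 to 116467216, rn5). Its p was 0.0461 and its q 0.528 in the authors' deposited table. Gpx4, which reduces lipid peroxides in membranes and guards against ferroptosis, had 272.8 and 211.9 FPKM (-0.36), with p = 0.0558 in the authors' deposited table. Gpx3, the secreted plasma enzyme, of which the kidney is a main source, had 281.5 and 282.5 FPKM (0.01). Gpx8 and Gpx7, both of the endoplasmic reticulum, had log2 folds of 0.19 and -0.06. Gpx2, Gpx5 and Gpx6, known from gut, epididymis and olfactory epithelium, were listed at 0 in both groups.

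The peroxiredoxins were the most abundant family, with 2762 FPKM summed over the 7 loci with anti-scr and 2573 FPKM with anti-miR-21, and their folds went in both directions. Prdx5, an atypical peroxiredoxin of mitochondria, peroxisomes and cytosol, had 265.1 and 176.2 FPKM, a level 33.5% lower (log2 fold -0.59; chromosome 1, 229155308 to 229169579, rn5). It had the lowest p of the module, 0.0096, in the authors' deposited table. Prdx2, a cytosolic enzyme also abundant in red blood cells, had 525.2 and 395.8 FPKM (-0.41; chromosome 19, 37050604 to 37065717, rn5), with p = 0.0390 and q = 0.505 in the authors' deposited table. The other mitochondrial peroxiredoxin, Prdx3, did not follow Prdx5 in value, with 671.1 and 680.2 FPKM (0.02). Prdx1, the most abundant member of the module with values in both groups, had 790.9 and 850.6 FPKM (0.11). Prdx6, which reduces phospholipid peroxides with glutathione, had 463.5 and 420.5 FPKM (-0.14). Prdx4, of the endoplasmic reticulum, had 38.9 and 43.2 FPKM (0.15). Srxn1, which repairs over-oxidised peroxiredoxins, had 7.65 and 6.40 FPKM (-0.26). Of 6 red blood cell marker loci, 5 were higher in value and Slc4a1 lower, with summed levels, mostly of haemoglobin genes, of 2217 and 2524 FPKM; their part in the fold of Prdx2 was not tested.

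In the thioredoxin system the lowest fold was that of the mitochondrial reductase gene. Txnrd2, the mitochondrial reductase, had 28.4 FPKM with anti-scr and 18.4 FPKM with anti-miR-21, a level 35.2% lower (log2 fold -0.63; chromosome 11, 89762304 to 89829567, rn5). It was also the lowest fold of the module, with p = 0.02005 and q = 0.392 in the authors' deposited table. Its substrate gene Txn2 stood at 2 loci with the same interval (chromosome 7, 119114734 to 119153058, rn5). The more abundant had 212.6 and 147.7 FPKM (-0.53) and the other 77.3 and 109.0 FPKM (0.50). Summed over both loci the log2 fold of Txn2 was -0.18, so the direction at its main locus was opposed by its copy and the size is uncertain. The cytosolic thioredoxin gene Txn1 had 663.2 and 690.8 FPKM (0.06). Its reductase Txnrd1 had 21.8 and 18.6 FPKM (-0.23). Txnip, which binds and inhibits thioredoxin, had 367.5 and 320.0 FPKM (-0.20). Txnrd3, a reductase that also acts on glutathione, had a log2 fold of -0.15.

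Of the 7 measured loci for proteins with a thioredoxin-like domain, 6 were higher in value, with a median log2 fold of 0.09. Txnl4b, related to a spliceosome component, had the highest fold of the module, with 11.6 and 15.6 FPKM (0.43) and q = 0.688 in the authors' deposited table. Txndc9, a regulator of chaperonin function, had 92.0 and 111.2 FPKM (0.27). The most abundant, the proteasome-associated Txnl1, had 167.1 and 173.5 FPKM (0.05). Txndc12, an oxidoreductase of the endoplasmic reticulum, stood at 2 loci with the same interval, with log2 folds of 0.08 and 0.31. Txndc11 was the exception to the direction, at -0.01. Txndc3 lay under the minimum, Txndc8 was listed at 0 in both groups, and Txndc2 had 0.04 FPKM with anti-scr and was listed at 0 with anti-miR-21; these 3 are known from testis.

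Catalase and the dismutases with values in both groups lay close to their anti-scr levels. Cat, the peroxisomal enzyme that splits hydrogen peroxide, had 222.1 and 212.1 FPKM (-0.07). The mitochondrial manganese dismutase gene Sod2 had 321.2 and 304.1 FPKM (-0.08), and the extracellular dismutase gene Sod3 had 57.5 FPKM in both groups. Sod1, the cytosolic copper and zinc dismutase gene, was listed at 0 in the anti-scr column, against 900.4 FPKM in the anti-miR-21 column, and its p was 1 in the authors' deposited table. Since every cell uses this gene and such a 0 may come from a failed estimate, no fold is given. Among all named loci, 2 were listed at 0 in 1 group and at 100 FPKM or more in the other: Sod1 and Dld, a subunit gene of mitochondrial dehydrogenases (0 and 554.2 FPKM), chosen after its value was seen. The quinone reductase genes Nqo1, a standard Nrf2 target, and Nqo2 had log2 folds of -0.12 (21.9 and 20.1 FPKM) and 0.04 (103.6 and 106.6 FPKM).

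Glutathione S-transferases, which couple glutathione to electrophiles, were mostly lower in value: 10 of 12 measured loci, with a median log2 fold of -0.29. The most abundant was the locus of Gstm2 and Gstm4 on chromosome 2 (230246903 to 230308181, rn5), with 496.4 FPKM with anti-scr and 372.8 FPKM with anti-miR-21 (log2 fold -0.41). Its p was 0.0469 and its q 0.530 in the authors' deposited table. Gstm1 is a further entry at this same interval, with 54.5 and 45.3 FPKM (-0.27), and the neighbouring Gstm7 had 69.0 and 52.9 FPKM (-0.38). The theta genes Gstt1, Gstt2 and Gstt3, side by side on chromosome 20, had folds of -0.39, -0.08 and -0.49, at 16.2 FPKM or less. Genes of these mu and theta clusters are close copies, and how reads shared between them were assigned is not given in the sources used here, so their single values are uncertain. Gstp1, the pi-class gene, had 104.3 and 86.5 FPKM (-0.27), and Gstk1, of mitochondria and peroxisomes, had 86.5 and 69.8 FPKM (-0.31). The alpha-class genes went apart in value: Gsta4, whose enzyme clears the lipid peroxidation product 4-hydroxynonenal, had 102.0 and 80.4 FPKM (-0.34), and Gsta3 had 67.8 and 84.8 FPKM (0.32). The omega-class gene Gsto1, a dehydroascorbate reductase, had 223.1 and 238.8 FPKM (0.10), and its neighbour Gsto2 had 2.54 and 2.19 FPKM (-0.21). Gsta5, Gstm3, Gstm5 and Gstt4 were listed at 0 in both groups, Gstm6 was listed at 0 with anti-scr (0.06 FPKM with anti-miR-21), and Gsta2 and Gstm6l lay under the minimum. Just inside the minimum stood Gstt1, at 1.20 and 0.91 FPKM, and just outside it Gsta2, at 0.50 and 0.64 FPKM at a locus with a second name.

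Of the microsomal transferases, the membrane enzymes of this group, Mgst3 was the abundant one and had 478.8 and 316.0 FPKM, a level 34.0% lower (log2 fold -0.60; chromosome 13, 90108875 to 90265040, rn5). Its p was 0.0617 and its q 0.572 in the authors' deposited table. Mgst1 had 43.8 and 38.6 FPKM (-0.18), and Mgst2 had 20.4 and 21.6 FPKM (0.08).

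**Figure D2:**
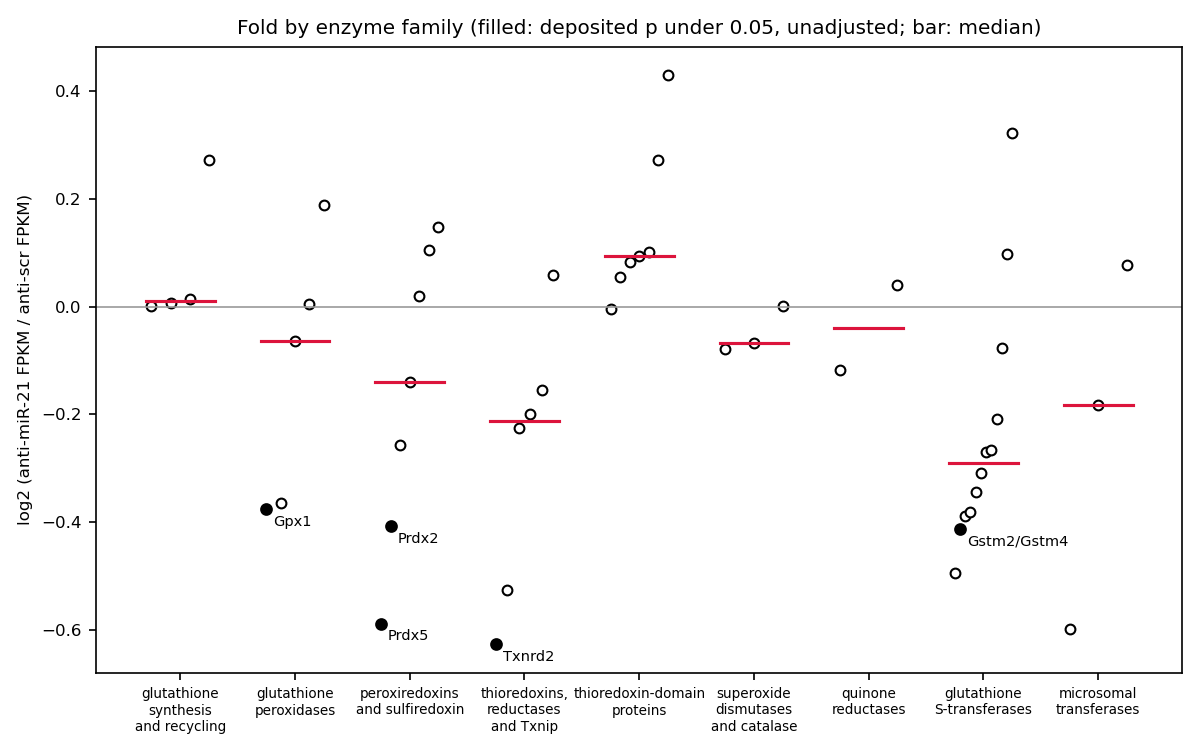
Log2 fold (anti-miR-21 over anti-scr) of the 49 loci by family; each point is 1 locus, filled where the deposited p was under 0.05 without adjustment, and the bar is the family median. The 5 filled points all lie below 0, medians are lowest for the glutathione S-transferases (-0.29) and the thioredoxins and reductases (-0.21), and the thioredoxin-domain proteins have the highest (0.09).

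Sorted by the compartment of the protein, a grouping chosen after the values were seen, 5 of 6 mitochondrial members (Prdx5, Txnrd2, Txn2, Gstk1 and Sod2, with Prdx3 the exception) were lower in value, with a median log2 fold of -0.42. With Txn2 summed over its loci that median was -0.24, and without Txn2 it was -0.31, settings added after seeing the data. Of 8 members of the endoplasmic reticulum or the secreted space (Prdx4, Gpx3, Gpx7, Gpx8, Sod3, Txndc11, Txndc12 and Txndc15), 2 were lower. Their median was 0.04. The microsomal transferases Mgst1, Mgst2 and Mgst3, with log2 folds of -0.18, 0.08 and -0.60, were not in this list. The mitochondrial list left out Gpx1 (-0.38), whose enzyme is placed above in cytosol and mitochondria. For 9 genes widely used as Nrf2 targets (Nqo1, Gclc, Gclm, Gsr, Srxn1, Txnrd1, Gstp1, Prdx1 and Txn1), 4 were lower and the median was 0.01. Of the 12 measured glutathione S-transferases, 10 of which were lower, this list took only Gstp1, so its median depends on the choice of genes. None of these 3 groupings was tested. Over all named loci above the minimum, 48.1% were lower. Nrf2 target genes outside the module, listed further below, were mostly lower in value: 10 of 13, with a median log2 fold of -0.17. Most cardiomyocyte markers were also lower in value, 9 of 10, while 8 of 10 macrophage markers (403 and 523 FPKM summed) and 5 of 6 fibroblast markers (1363 and 1663 FPKM summed) were higher. The lower fibroblast marker, Col1a2, had 0.01 FPKM with anti-scr and was listed at 0 with anti-miR-21. Endothelial and mural markers were mostly lower in value, 4 of 5 in each. Their summed levels were 279 and 281 FPKM (endothelial) and 630 and 682 FPKM (mural). The part of these shifts in the folds of the antioxidant genes was not tested, and in whole tissue fewer cells of a type and less RNA per cell cannot be told apart.

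Folds of these genes differed with the number of genes around them. The neighbour count of a locus is the number of named loci with midpoints within 500 kb on either side. It was 20 for Txnrd2, 23 for Gstm2 and Gstm4, 28 for Prdx2, 31 for Prdx5 and 38 for Gpx1, against a median of 11 over named loci. Of the 29 members above that median, 22 were lower in value (median log2 fold -0.23), and of the 20 at or below it, 6 were lower (0.03). As shares these are 75.9% and 30% lower, against 65.2% and 32.2% over all named loci with a position, whose medians on the same sides were -0.13 and 0.11. Across the 49 members Spearman's rho between neighbour count and fold was -0.56 and Pearson's r -0.53, against -0.43 and -0.38 across all 9877 named loci with a position; genes share their libraries and their neighbourhoods, so this is a description. Members departed from the pattern on both sides of the median count. Examples are Mgst3, with 6 neighbours and a log2 fold of -0.60, and Gsta4, with 10 and -0.34. On the other side stood Prdx1, with 21 neighbours and 0.11, and Txndc15, with 18 and 0.09. The median neighbour count was 18.5 for the 6 mitochondrial members and 12 for the 8 of the endoplasmic reticulum or secreted space. The part of gene neighbourhood in the folds of single members or of these groupings was not tested.

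**Figure D3:**
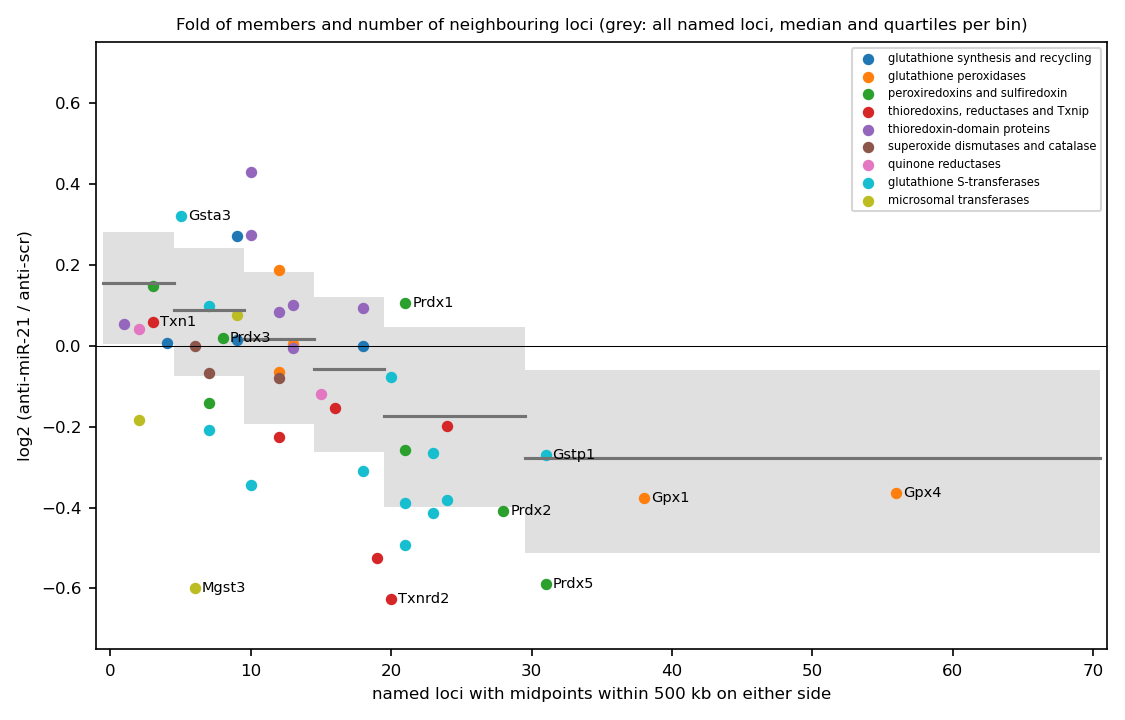
Log2 fold of each member (coloured by family) against its number of neighbouring named loci; grey bars give the median and quartiles of all named loci in bins of neighbour count. Gpx4 (56 neighbours), Gpx1, Prdx5 and Prdx2 lie at the gene-dense end and below 0, and Mgst3 (6 neighbours) lies far below the grey band.

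The promoters of these genes were searched for the core of the antioxidant response element, TGACNNNGC on either strand, in RefSeq promoter windows (GRCr8) that run from 250 bases before to 50 after each gene's start; hits can overlap AP-1 sites. A window was matched for 54 of the 64 genes by symbol. The core was present in 15 of these 54 genes (27.8%), in at least 1 of their windows, and in 12.1% of all 33469 windows, so the longer search of genes with several windows counts in the members' share. The stretches of 4 well-known Nrf2 or AP-1 targets and of Prdx5, the member with the lowest p, are shown to let their letters be set beside their folds. Each is 41 bases, written along the gene's strand, with the core in capitals; GCNNNGTCA is the core read from the other strand.
Gstp1 (chromosome 1, 210769742 to 210769782, minus strand): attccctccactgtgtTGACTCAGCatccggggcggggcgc
Prdx1 (chromosome 5, 135383755 to 135383795, plus strand): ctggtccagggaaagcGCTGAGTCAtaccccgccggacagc
Gclm (chromosome 2, 213031947 to 213031987, plus strand): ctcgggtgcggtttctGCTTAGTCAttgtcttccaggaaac
Txnrd1 (chromosome 7, 22755958 to 22755998, minus strand): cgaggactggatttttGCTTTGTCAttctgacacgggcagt
Prdx5 (chromosome 1, 213532004 to 213532044, minus strand): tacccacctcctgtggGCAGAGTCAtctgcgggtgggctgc
The first base of the core lay at -61 from the start in Gstp1, -135 in Prdx1, -172 in Gclm, -78 in Txnrd1 and -1 in Prdx5. Their log2 folds were -0.27, 0.11, 0.01, -0.23 and -0.59, so genes with the core were found on either side of 0. Of the 12 measured members with a core, 6 were lower in value (median 0.00), and of 29 matched members without one, 18 were lower (median -0.15). Cores outside the windows were not searched for, so genes counted as without one may carry it elsewhere. A match of letters does not show that a factor binds there.

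Among 93 genes of the same pathways outside the symbol rule, 2 were called in the authors' deposited table, 1 in each direction, which is 2 of 78 tested, against 0.815% of all tested loci. Maoa, monoamine oxidase A, which makes hydrogen peroxide in the outer mitochondrial membrane, rose from 275.9 to 491.3 FPKM (log2 fold 0.83; chromosome X, 7371697 to 7439640, rn5), with q = 0.0131 in the authors' deposited table. Aldh2, the mitochondrial aldehyde dehydrogenase that clears 4-hydroxynonenal, shares its locus with Acad10; that locus fell from 163.0 to 90.2 FPKM (-0.85; chromosome 12, 42285814 to 42365993, rn5), with q = 0.0131 in the authors' deposited table. At an unadjusted p under 0.05, 10 of 78 tested pathway genes were lower (12.8%) and 2 higher (2.56%) in the authors' deposited table, against 6.11% and 3.18% of all tested loci. By value, 49 of 79 were lower, with a median log2 fold of -0.09, against 48.1% and 0.01 over all named loci above the minimum. Neighbour counts were 3 for Maoa and 9 for the locus of Aldh2.

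In the Nrf2 system, the value for Keap1 was lower and that for Nrf2 higher with anti-miR-21, and neither passed the q threshold. Nfe2l2, which encodes Nrf2, had 43.9 and 55.0 FPKM (log2 fold 0.32), with p = 0.0949 in the authors' deposited table. Keap1 had 20.9 and 14.3 FPKM (-0.54) and Sqstm1, an autophagy adaptor that binds Keap1, had 231.6 and 177.5 FPKM (-0.38), with p = 0.0294 and p = 0.0466 in the authors' deposited table. Hmox1, haem oxygenase and a sensitive Nrf2 target, had 21.28 and 19.04 FPKM (-0.16). Of the measured pathway genes, 7 of 9 in the Nrf2 system were lower in value (median log2 fold -0.19). Among the Nrf2 targets of that list, 10 of 13 were lower (median -0.17), against 48.1% of all named loci above the minimum. Neighbour counts were 4 for Nfe2l2 and 30 for Keap1.

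Enzymes that supply NADPH to both thiol systems were lower by value in 10 of 13 genes and higher in 3. The share lower over all named loci above the minimum was 48.1%. Idh2, the mitochondrial isocitrate dehydrogenase, had 1449 and 983.1 FPKM (log2 fold -0.56), with p = 0.0037 and q = 0.180 in the authors' deposited table. Tkt (12.3 and 8.18 FPKM) and Pgls (2.17 and 1.26 FPKM), of the pentose phosphate pathway, had folds of -0.59 and -0.79, with p = 0.0130 and p = 0.0357 in the authors' deposited table. Nnt, the mitochondrial transhydrogenase, had 1380 and 1275 FPKM (-0.11). Neighbour counts were 22 for Idh2, 13 for Tkt, 37 for Pgls and 5 for Nnt, against a median of 11 over named loci. The part of gene neighbourhood in the folds of pathway genes was not tested.

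Other genes of glutathione use and protein repair passed the unadjusted threshold in the lower direction in the authors' deposited table. They were Oplah, which recycles 5-oxoproline from glutathione breakdown (log2 fold -0.71), the zeta-class transferase gene Gstz1 (-0.55), the methionine sulfoxide reductase gene Msra (-0.63) and Park7, which encodes DJ-1 (260.4 and 186.7 FPKM, -0.48). The lowest q of these 4 was 0.292, for Park7, in the authors' deposited table. The first 2 were among 15 tested genes of glutathione use (13.3%) and the last 2 among 11 tested repair genes (18.2%). Over all tested loci, 6.11% were lower at this threshold. Neighbour counts were 40 for Oplah, 15 for Gstz1, 6 for Msra and 8 for Park7. Genes that supply or encode other selenoproteins were evenly divided by value, 4 lower and 4 higher of 8, with no p under 0.05 in the authors' deposited table. Among oxidant sources, 7 of 10 genes were higher in value (median 0.24), against 5173 of 9960 named loci above the minimum. Cybb, the catalytic subunit of the phagocyte NADPH oxidase, had 10.5 and 14.8 FPKM (0.49), with p = 0.0182 and q = 0.377 in the authors' deposited table. Subunits of the same oxidase went in both directions in value: Cyba, the membrane partner of Cybb and Nox4, had 8.46 and 5.41 FPKM (-0.64), Ncf1 had 77.0 and 61.0 FPKM (-0.34), and Ncf4 had a fold of 0.10. Nox4, the oxidase of heart muscle and fibroblasts, had 1.71 and 2.12 FPKM (0.31).

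**Figure D4:**
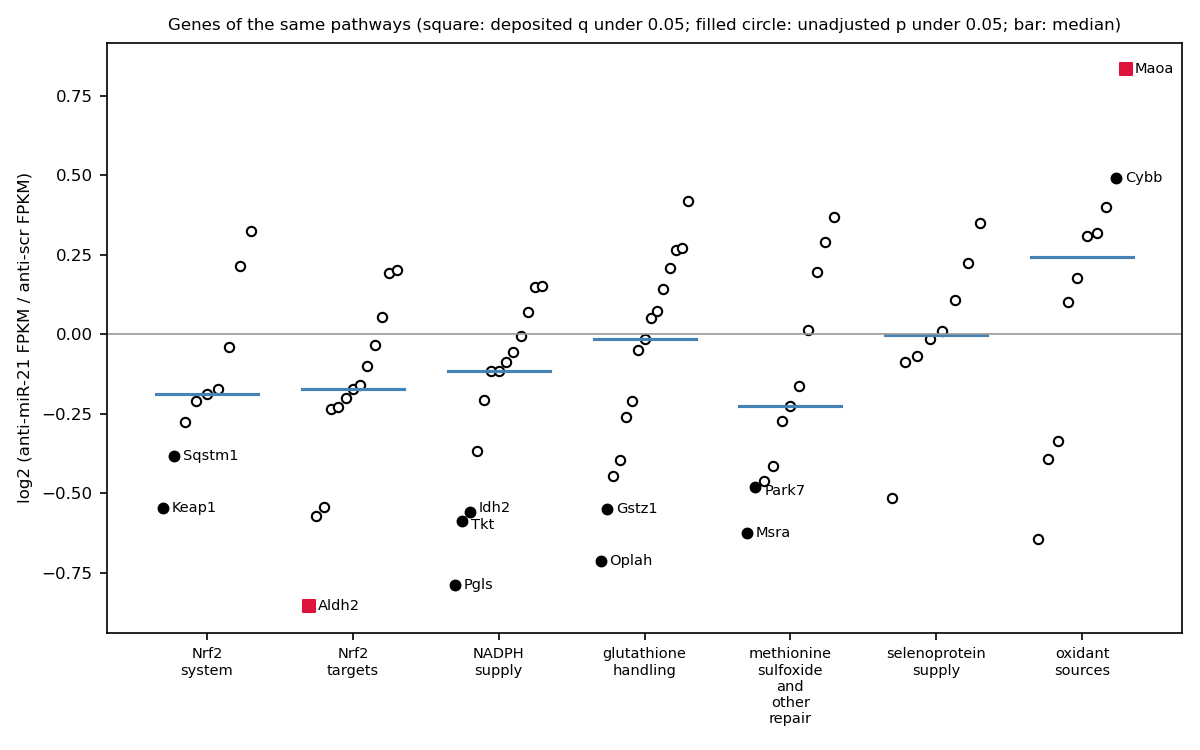
Log2 fold (anti-miR-21 over anti-scr) of pathway genes outside the module, by group; each point is 1 gene with a mean of at least 1 FPKM, squares have a deposited q under 0.05, filled circles an unadjusted p under 0.05, and bars are medians. Maoa (0.83) and the locus of Aldh2 (-0.85) are the squares, and 7 of 10 oxidant source genes lie above 0.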

How the data were processed

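The authors' deposited FPKM values were 1 per locus and group, with a p-value and a q-value in the same table. Reads were handled with cutadapt and TopHat2 2.0.10 and quantified with Cufflinks 2.0.10 and Cuffdiff on rn5, per the submitters' processing notes; the sources used here give neither annotation nor options. The read count per library, and the percent of bases at Q30 and of reads mapped, are deposited values; how pairs were counted is not stated there. Cells stood shifted in 97 of 22861 loci, none with a member, and were realigned. Folds are log2 of anti-miR-21 FPKM over anti-scr FPKM, with no pseudocount. Where a gene had several loci, the one with the highest mean FPKM was used. Loci tested are the 12876 with a deposited p under 1; their q equalled Benjamini-Hochberg values within 5.2e-07. Depth per locus is unknown. The p-values rest on pooled libraries and do not measure the spread between single rats. The work used Python 3.11.15, pandas 2.3.3 and statsmodels 0.14.6, and realignment was tested on simulated rows. The members, families and lists were chosen with earlier results of these data known. Named are, per family, the most abundant member and the largest rise and fall, members with p under 0.05 or listed at 0, and further members above 1 FPKM. Of the pathway list, 2 genes are counted but their own values are not reported here. Alternatives were other q thresholds, FPKM minimums, a pseudocount, locus choice and centring.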

Additional observations from a re-analysis of the deposited data

How the results depend on the processing

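No paired analysis was possible because the expression values are 1 per group, and for the same reason no library could be left out. The count of 0 members at q under 0.05 was also 0 at q under 0.1, with q recomputed over loci of at least 1 FPKM and with each locus counted on its own; at an unadjusted p under 0.05 it was 5, and the pathway count of 2 became 12. The median log2 fold of the members, -0.08, was -0.12 as a mean and 0.030 over members in regions with a neighbour count at or below the median, an alternative chosen after seeing the data; the cause was not tested. It moved by less than 0.02 under the other 6 alternatives. The count of 28 members lower by value ran from 25 to 32. Summing loci gave log2 folds of -0.18 for Txn2, -0.30 for Gsta4 and 0.17 for Txndc12.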

Other observations

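Txn2 is not alone in standing at a pair of loci with the same interval. Of 232 genes listed at 2 loci with an identical interval, both above 1 FPKM, 93 had folds of opposite sign. Among antioxidant genes, Gsta4 (log2 folds -0.34 and -0.03) and Txndc12 (0.08 and 0.31) had pairs of like sign. The neutrophil and mast cell markers summed to 56.1 FPKM with anti-scr and 105.2 FPKM with anti-miR-21, most of it from S100a8 and S100a9. Of the mast cell markers, Cpa3 was higher in value (3.46 and 7.29 FPKM) and Tpsb2 lower (3.42 and 3.05 FPKM), and Mpo, Elane and Mcpt1 were listed at 0 in both groups.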
